A study of Mus musculus with 12 samples.

Results

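Kainate receptors are glutamate-gated cation channels with a tetrameric build. Grik1, Grik2 and Grik3 encode the subunits that form working channels on their own, while Grik4 and Grik5 encode the high-affinity subunits that need one of the former as a partner. Grid1 encodes a delta receptor, a relative that acts mainly as a synaptic organizer, bound by secreted cerebellins that link it to presynaptic neurexins. Kainate receptors sit on both sides of the synapse and shape transmitter release and network excitability in the forebrain. The 6 genes Grik1, Grik2, Grik3, Grik4, Grik5 and Grid1 were taken by symbol from the 20504 genes with counts on coding sequence (CDS), and all 6 passed the count limit of every comparison on CDS or exon counts.

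The libraries came from the brain (frontal lobe in the study's methods) of 6 adult Camk2a-RiboTag mice, 2 in each of 3 sets. In these mice a Cre recombinase under the Camk2a promoter, active mainly in excitatory forebrain neurons, switches on a hemagglutinin-tagged copy of the ribosomal protein Rpl22, so that ribosomes of those neurons can be pulled down. Mice A and B are labelled untreated (vehicle in the study's methods), and mice C and D received a single oral dose of 100 mg/kg AZD-8055, an ATP-competitive mTOR inhibitor, and were sacrificed 1 h later. Each of these 4 mice gave an RNA-Seq library and a ligation-free ribosome profiling library (footprints) of the whole homogenate, while mice E and F, labelled untreated, each gave an RNA-Seq library of the homogenate (input) and of the RiboTag immunoprecipitate (IP).

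CDS counts per library ranged from 3503873 to 10649939 in mice A to D, with the footprint libraries of mice B, C and D the shallowest, and from 9309496 to 15585831 in mice E and F. In IP, 5 of 6 markers of excitatory neurons were higher than in input and none was lower on exon counts, whereas all 6 inhibitory neuron markers and all 20 markers of glia and endothelial cells were lower. On CDS counts 4 excitatory markers were higher, while Camk2a, whose promoter drives the Cre, was lower (log2 change −0.66) and was not called on exon counts (0.27). No marker had an exon count of 0 in any of the 8 RNA-Seq libraries. As all of these are bulk samples, fewer cells of a type and less RNA per cell cannot be told apart.

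In the build that the labels name, mm10 (GRCm38), RefSeq places Grik1 at chr16:87895901-88290863, Grik2 at chr10:49093680-49790161, Grik3 at chr4:125490259-125714173, Grik4 at chr9:42518182-42945000, Grik5 at chr7:25009849-25075694 and Grid1 at chr14:34820003-35583387. Counts were summed over the exons or the CDS of each gene. The only other protein-coding gene that overlaps one of them is Zfp574, which starts at 25075674 inside the last bases of the Grik5 interval.

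Together the 6 genes took 693 ± 33.0 counts per 1000000 CDS counts of the library (CPM, mean ± SD, n = 2 mice) in untreated RNA-Seq and 269 ± 3.42 in untreated footprints. Levels are not compared between genes here because coding lengths were not used. Within a gene, the plot of CPM shows 3 patterns over the 12 libraries. Grik2 had overlapping levels in footprints and RNA-Seq, Grik3 was higher in footprints than in the RNA-Seq of the same mice, and both were lowest in IP. Grik4, Grik5 and Grid1 were lower in footprints than in every RNA-Seq library. Grik1 was low in both footprints and IP.

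**Figure D1:**
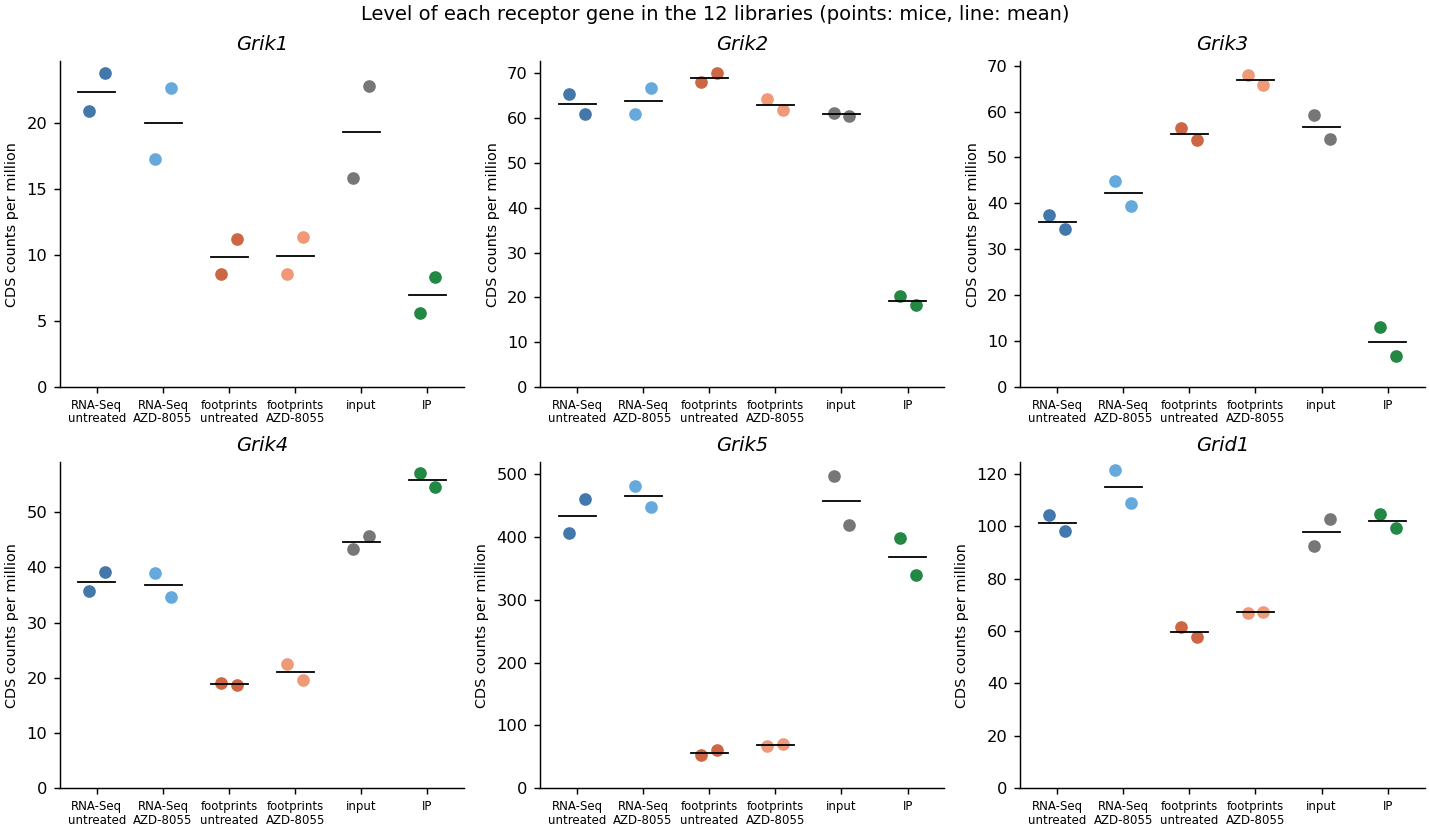
CPM on CDS (linear axis from 0) of the 6 receptor genes in each of the 12 libraries, with one panel per gene. Each point is a mouse and each line the mean of 2 mice. Grik5 lies between 340 and 497 in the RNA-Seq, input and IP libraries and between 53.3 and 70.4 in footprints, while Grik3 lies between 6.72 and 13.0 in IP and at 34.5 or more in all other libraries.

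The mixture of subunit reads differed between RNA and footprints. Grik5 supplied 62.4 ± 2.53% of the CDS counts of the 6 genes in untreated RNA-Seq but 21.1 ± 1.53% in untreated footprints (SD, n = 2). Grik2 went the other way, from 9.12 ± 0.881% to 25.6 ± 0.243%, and so did Grik3, from 5.20 ± 0.553% to 20.5 ± 0.927%. Grid1 supplied 14.6 ± 1.33% and 22.2 ± 1.30%. The shares of Grik1 (3.21 ± 0.142% and 3.66 ± 0.656%) and Grik4 (5.39 ± 0.0972% and 7.02 ± 0.204%) were small in both. Grik5 thus held most of the RNA-Seq counts, whereas footprint counts were spread almost evenly over Grik2, Grik3, Grik5 and Grid1. Shares within one kind of library also depend on the length of each CDS, and only the shift between the kinds is read here. A share can also rise because that of Grik5 falls. Mean levels of Grid1 (101 to 59.7 CPM), Grik4 (37.4 to 18.9) and Grik1 (22.3 to 9.87) were lower in untreated footprints than in untreated RNA-Seq.

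Translation efficiency (TE), the ratio of footprints to RNA-Seq on the CDS of the same mouse, puts this on a scale relative to the average gene. Among the 6 genes, 2 had a TE above that of the average gene and 4 below, in a quasi-likelihood test (edgeR) with p-values adjusted by Benjamini-Hochberg over 11797 genes. Of all genes tested, 36.5% were called above and 37.3% below. The median log2 TE of the members was −0.72, against −0.0096 for all genes.

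Grik5, a high-affinity subunit common in forebrain kainate receptors, had the lowest TE of the family. Its untreated RNA-Seq levels were 406 and 460 CPM in mice A and B, and its footprint levels were 53.3 and 60.2. Log2 TE was −2.80 in mouse A and −2.87 in mouse B, 7.13-fold below 1 on average. This put Grik5 at the 0.790 percentile of the 10882 genes with a TE, far outside the spread between mice (SD of the A-to-B difference across genes 0.28). The edgeR estimate was −2.80 (SE 0.091, adjusted p = 6.5e-13).

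Grik4, the other high-affinity subunit, was also low, but much less so. It had 35.7 and 39.1 CPM in untreated RNA-Seq and 19.1 and 18.7 in footprints. Log2 TE was −0.77 in mouse A and −0.998 in mouse B (edgeR −0.84, SE 0.13, adjusted p = 2.5e-05).

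The 3 subunits that form channels on their own differed among themselves. Grik1, which is well known from interneurons, had 20.9 and 23.8 CPM in untreated RNA-Seq and 8.53 and 11.2 in footprints. Its log2 TE was −1.16 and −1.02 (edgeR −1.08, SE 0.19, adjusted p = 1.1e-04), on the fewest footprints of the family, 79 in mouse A and 51 in mouse B. Grik2, a major kainate receptor subunit of the forebrain, lay close to the average gene. It had 65.2 and 60.9 CPM in untreated RNA-Seq and 67.9 and 70.1 in footprints. Its log2 TE was 0.18 and 0.27 (edgeR 0.27, SE 0.089, adjusted p = 0.0127), and the call was lost without mouse B (adjusted p = 0.188) and under library-total scaling (adjusted p = 0.188). Grik3, a subunit with low glutamate affinity, had the highest TE of the 6. It had 37.5 and 34.5 CPM in untreated RNA-Seq against 56.4 and 53.8 in footprints. Log2 TE was 0.72 and 0.71, at the 79.7 percentile (edgeR 0.76, SE 0.11, adjusted p = 7.8e-06).

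Grid1 lay on the low side with Grik4. It had 104 and 98.2 CPM in untreated RNA-Seq and 61.7 and 57.8 in footprints. Log2 TE was −0.63 in mouse A and −0.70 in mouse B (edgeR −0.61, SE 0.088, adjusted p = 1.3e-05). In order of mean log2 TE the family ran Grik5, Grik1, Grik4, Grid1, Grik2 and Grik3. No neighbours in this order had overlapping values in mice A and B, but the gaps between Grik1 and Grik4 (nearest values −1.02 and −0.998) and between Grik4 and Grid1 (−0.77 and −0.70) were smaller than the spread within Grik4, so Grik4 does not differ from either neighbour beyond it. From Grik5 to Grik3 the means spanned 3.55 on the log2 scale, or 11.7-fold. Both sides of TE count CDS reads alone. In mice A and B, 17.2% and 16.2% of Grik3 exon counts in RNA-Seq lay on CDS, and 51.8% and 51.1% of those of Grik2. The shares were 84.8% and 85.5% for Grik1, 87.5% and 87.4% for Grik4, 83.3% and 81.8% for Grik5, and 96.1% and 96.0% for Grid1. The medians over 11339 genes were 62.4% and 62.3%. Whether these shares bear on the order of TE was not tested.

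**Figure D2:**
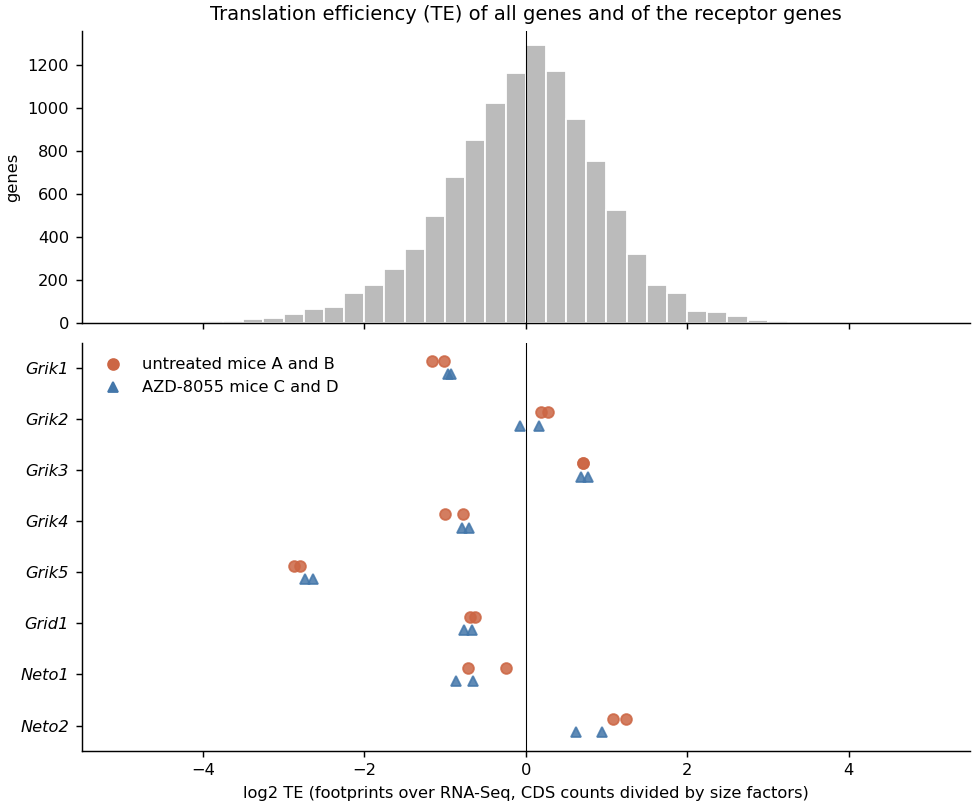
The upper panel gives the number of genes per 0.25-wide bin of mean log2 TE in untreated mice, and the lower panel log2 TE of each mouse for the 6 receptor genes and for Neto1 and Neto2 (circles for untreated mice A and B, triangles for AZD-8055 mice C and D). Grik5 sits near −2.8 in all 4 mice, in the left tail of the distribution, while Grik3 lies between 0.68 and 0.77.

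The wider receptor machinery did not share one direction. Of 21 related genes, 19 could be tested, of which 9 had a higher and 7 a lower TE than the average gene (median log2 TE 0.14). Klhl24, an adaptor of ubiquitin ligases known to bind kainate receptors, was among the highest at 1.90, as was the neurexin gene Nrxn3 (1.54). Dlg4, which encodes the postsynaptic scaffold PSD-95, was the lowest at −2.20, followed by Klhl17 (−1.86), an actin-associated protein that binds Grik2. The auxiliary subunits, which set the gating of kainate receptors, were split, with Neto2 at 1.21 and Neto1 at −0.40. Of 10 other ionotropic glutamate receptor genes (AMPA and NMDA types), 8 were higher and 2 lower, with a median of 0.50. The lowest of these, Grin2c (−2.42), was the closest to Grik5, and the highest was Grin2b (4.46).

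The IP compares RNA on tagged ribosomes with RNA of the whole homogenate. On exon counts, the main measurement, 1 of the 6 genes was higher in IP, 2 were lower and 3 were not called. Among all 13254 genes, 33.7% were called higher and 35.7% lower. On CDS counts, 2 members were higher, 3 lower and 1 was not called, against 36.5% higher and 39% lower among 12211 genes. Values below are counts divided by size factors, which put both libraries of a mouse on one scale within a count table, not across tables. Every log2 change is that of edgeR's quasi-likelihood fit, also scaled for each table on its own.

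Grik1 was lower in IP on both counts. In mouse E the normalized exon count dropped from 227 (input) to 79.9 (IP), and in mouse F from 290.02 to 109.5. IP values lay below both input values, and the log2 change was −1.56 (SE 0.23, adjusted p = 0.00138), or 2.95-fold lower. On CDS counts the change was −1.03 (SE 0.27, adjusted p = 0.00671). The summed exon CPM of the 6 inhibitory neuron markers were 936 and 999 in input and 213 and 161 in IP, and their part in this difference was not tested.

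Grik2 was lower in IP whichever region was counted, by amounts that differed. Mouse E had a normalized exon count of 1167 in input and 736 in IP, mouse F of 1117 and 714, a log2 change of −0.77 (SE 0.099, adjusted p = 7.0e-04). The normalized CDS counts were 578 against 279.9 (mouse E) and 574 against 262 (mouse F), a change of −1.22 (SE 0.14, adjusted p = 5.3e-05). Both IP values lay below both input values in each case.

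Grik3 gave the widest gap between the regions among the 5 members with enough counts in each. Mouse E had a normalized exon count of 2816 in input against 2688 in IP, mouse F of 2772 against 2251. The log2 change was −0.30 (SE 0.11) and was not called (adjusted p = 0.0522), but with the mouse as a block it was also −0.30 with adjusted p = 1.6e-04, without mouse E it was −0.39 with adjusted p = 0.00277, and without mouse F it was −0.22 with adjusted p = 0.0504, so that the call depended on which mouse was left out. The normalized CDS counts, in contrast, were 559 against 180.2 (mouse E) and 514 against 95.9 (mouse F). There the log2 change was −2.09 (SE 0.26, adjusted p = 8.7e-05), or 4.26-fold lower.

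The gap can be seen in the raw counts. In input, 744 of 3100 Grik3 exon counts of mouse E (24.0%) and 842 of 3938 of mouse F (21.4%) lay on CDS. In IP the numbers were 121 of 2019 (6.0%) and 67 of 1953 (3.4%). Most reads of this gene therefore fell outside the CDS in every RNA-Seq library, and more so in IP. For Grik2 the share on CDS was 59.9% and 59.4% in input and 34.0% and 29.6% in IP. The median over all genes also fell, from 65.2% and 63.8% in input to 50.9% and 47.2% in IP.

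Exon counts outside the CDS were taken as the exon count minus the CDS count, a comparison added after the values had been seen. Grik1 was below the count limit there, and of the other 5 members none was higher and 2 were lower, against 29.1% higher and 30.5% lower of 9947 genes. Grik2 changed by −0.52 (adjusted p = 0.00672) and Grik3 by −0.49 (adjusted p = 0.00838). The difference between both regions was then tested in one fit in which each region was scaled to its own average gene. Among 9595 genes, the CDS change exceeded the other in 26.9% and fell short of it in 27.9%, and 2 of the 5 members fell short. In Grik3 the CDS change was lower by a further 1.53 than the change outside it (log2 −1.53, SE 0.16, adjusted p = 4.8e-07), with size-factor values of −1.37 (mouse E) and −1.897 (mouse F). In Grik2 it was −0.62 (SE 0.14, adjusted p = 0.00125), with −0.60 and −0.76 in the same mice. Grik4, Grik5 and Grid1 gave 0.27, −0.027 and 0.11 with adjusted p from 0.256 to 0.856, and their values in mice E and F had opposite signs. The Grik3 change in IP was negative in all 3 counts, at −0.30 on all exons (not called), −0.49 outside the CDS and −2.09 on CDS. Each count was scaled to its own average gene, so these values are not on one scale. The value on all exons therefore need not lie between those of its parts.

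Neto2, an auxiliary subunit of kainate receptors, behaved like Grik3, with a change of −0.63 on exon counts, −2.24 on CDS counts and a difference between the regions of −1.36 (SE 0.16, adjusted p = 1.6e-06). Neto1 had the opposite sign, with a difference of 0.45 (SE 0.13, adjusted p = 0.00589). A CDS change that fell short was not particular to these genes. Of 17 related genes tested, 4 exceeded and 5 fell short, beside 26.9% and 27.9% of all genes. Of 8 other ionotropic receptor genes, 0 exceeded and 5 fell short, among them Grin3a (−2.34), Gria2 (−0.80) and Gria3 (−0.74). Grin1, also counted among the 5, had an extreme value of −14.4. Its change was 14.3 outside the CDS, but 0.12 on all exons and −0.21 on CDS. Where exon counts were below CDS counts the difference was set to 0. Whether this gave the Grin1 value was not tested.

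**Figure D3:**
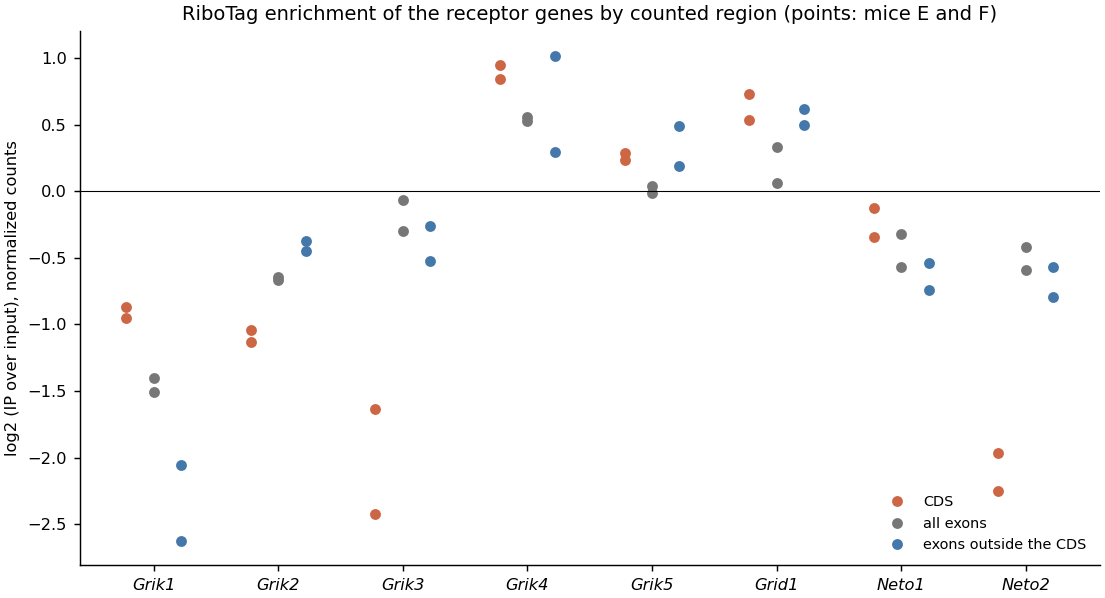
Log2 ratio of normalized counts in IP over input for mice E and F (points), for the 6 receptor genes and Neto1 and Neto2, counted on CDS, on all exons and on exons outside the CDS. For Grik3 and Neto2 the CDS points lie at −1.63 or lower while the others lie between −0.80 and −0.07.

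Grik4 was the member that was higher in IP on both exon and CDS counts. Its normalized exon counts in input and IP were 583 and 860.2 (mouse E), 568 and 821 (mouse F). The log2 change was 0.43 (SE 0.10, adjusted p = 0.00899). On CDS counts, with 410.2 and 792 (mouse E) or 435 and 779.7 (mouse F), it was 0.76 (SE 0.13, adjusted p = 5.0e-04). Outside the CDS the change was 0.55 and was not called (adjusted p = 0.0638). With library totals in place of TMM factors, which moves the median of all genes by −0.28, the exon change was 0.15 and was not called (adjusted p = 0.212).

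Grik5 was not called in either direction. Its normalized exon counts in input and IP were 6774 and 6703 (mouse E), 5412 and 5554 (mouse F), almost the same within each mouse. The log2 change was −0.11 (95% interval −0.46 to 0.24) on exon counts and 0.12 (−0.17 to 0.42) on CDS counts. The low TE of Grik5 in the homogenate was not accompanied by a called change of its mRNA in the IP. TE and IP come from different mice and are unlike measures. TE relates footprints to RNA of the homogenate, while the IP compares RNA on tagged ribosomes with RNA of the homogenate.

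Grid1 was called on CDS counts alone. Its normalized CDS counts in input and IP were 876 and 1452 (mouse E), 976 and 1416 (mouse F), a log2 change of 0.50 (SE 0.12, adjusted p = 0.00472). On exon counts it was 0.082 (95% interval −0.18 to 0.35, adjusted p = 0.523). From 93.6% to 97.2% of its exon counts lay on CDS, so both tables hold nearly the same reads of Grid1. The raw counts of mouse E were 1166 (input) and 975 (IP) on CDS, and 1215 and 1042 on exons. The size factors of these libraries were 1.33 and 0.672 on CDS, but 1.10 and 0.751 on exons. For Grid1 the tables thus differed in their scaling more than in the reads counted.

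Of the related genes, 5 were higher and 8 lower in IP on exon counts (median −0.081), and 6 were not called. Highest were the secreted partners of delta receptors and neurexins Cbln1 (1.33) and Cbln2 (1.05), followed by Dlg4 (0.87). The lower ones included Klhl24 (−1.34), Klhl17 (−1.25) and Grip1 (−1.24), a scaffold of AMPA and kainate receptors. Adarb1, the enzyme that edits the Q/R site of Grik1 and Grik2 transcripts, was at −0.081 on exon counts and −1.68 on CDS counts. Of the other ionotropic receptors none was higher and 6 were lower (median −0.64). Within the CDS counts of the 6 members, the share of Grik5 was 65.5 ± 1.43% in IP and 62.0 ± 3.67% in input, with overlapping mice. The share of Grik4 was 9.95 ± 0.581% in IP and 6.07 ± 0.604% in input, and that of Grik3 1.72 ± 0.633% and 7.68 ± 0.0117% (SD, n = 2).

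The AZD-8055 comparison asked whether mTOR inhibition moves these genes, and none of the 6 was called in RNA, footprints or TE by edgeR or by DESeq2. Of all genes, edgeR called 0.0575% higher and 0.0903% lower in RNA (12182 genes), 0.0468% higher and 0.982% lower in footprints (10695 genes), and 0.0763% higher and 0.788% lower in TE (11797 genes). The treatment itself was visible, as 68 of 86 tested genes with symbols that start with Rpl or Rps and a digit, most of them ribosomal proteins, fell in TE (median −0.84). At an unadjusted p under 0.05, 2 members were found in RNA, 2 in footprints and 0 in TE, against 1004 of 12182, 1369 of 10695 and 796 of 11797 genes in all. The 3 changes share their libraries, and so are not separate lines of evidence.

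Grik3 was the member found in both. Its RNA-Seq levels were 37.5 and 34.5 CPM in untreated mice and 45.0 and 39.4 with AZD-8055, without overlap (log2 change 0.24, SE 0.11, adjusted p = 0.579). Its footprints were 56.4 and 53.8 against 67.9 and 65.8, again without overlap (0.26, SE 0.10, adjusted p = 0.329). TE was nearly the same, with a log2 change of 0.0041 and a 95% interval of −0.32 to 0.33. The others were Grid1 in RNA (0.19, adjusted p = 0.538) and Grik5 in footprints, where 53.3 and 60.2 CPM stood against 67.9 and 70.4 (0.29, SE 0.11, adjusted p = 0.309).

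TE changes of the members ran from −0.19 in Grik2 to 0.20 in Grik1. The 95% intervals were −0.46 to 0.091 for Grik2, −0.28 to 0.53 for Grik4, −0.11 to 0.43 for Grik5 and −0.33 to 0.21 for Grid1. Grik1, with 30 to 79 footprints per library, had the widest interval, −0.42 to 0.82. A fall as large as the median of the ribosomal protein genes lay outside the intervals of all 6. The order of TE was also kept on average, with Grik5 at −2.74 and −2.64 and Grik3 at 0.68 and 0.77 in mice C and D. None of the 19 related or 10 other receptor genes tested was called in any of the 3 changes by edgeR. At an unadjusted p under 0.05 there were 4 of 19 related genes in RNA, 1 in footprints and 0 in TE, and of the 10 other receptors 0, 1 and 0, beside the 1004 of 12182, 1369 of 10695 and 796 of 11797 genes given above.

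**Figure D4:**
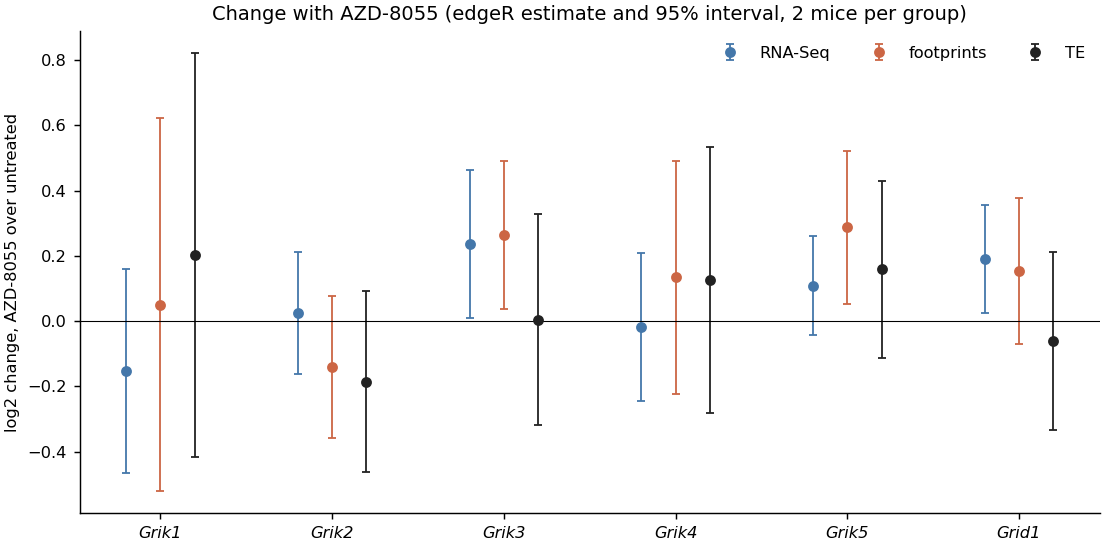
Log2 change with AZD-8055 over untreated mice in RNA-Seq, footprints and TE for the 6 receptor genes, from edgeR on CDS counts with 2 mice per group (points for estimates, bars for 95% intervals). All 6 TE intervals include 0, and the estimates of all 3 changes lie between −0.19 and 0.29.

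Over the 12 libraries, the genes whose CDS CPM, on the log2 scale, ran most like a member's were found among 12014 genes by Pearson's r, a description in which points share the kind of library. Grik5 was followed most closely by Agap2, Ddn and Scap (r from 0.998 to 0.999), and Grik2 by Vprbp, Pla2g7 and Mlc1 (all 0.995). Nearest to Grik3 were Tmem132b, Ptprt and the AMPA receptor gene Gria1 (0.991 to 0.993). Ppp2r2b, Adap1 and Cyp11a1 came closest to Grik4 (0.986 to 0.987), Rhobtb2, Ipo13 and St6galnac6 to Grid1 (0.973 to 0.978), and Zfp467, Fam189a2 and Col11a1 to Grik1 (0.971 to 0.972). The libraries fall into separate clusters by kind, and r within a kind was not computed.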

How the data were processed

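Reads were clipped (footprints), filtered against rRNA (Bowtie2), aligned (TopHat2) and counted per gene (HTSeq, strict intersection) by the authors. They deposited raw counts, in a CDS table of 12 libraries and an exon table of the 8 RNA-Seq libraries. The strand setting is not given in the sources used here. Genes averaging 37 or more counts over the libraries of a comparison were tested in edgeR 4.0.16 (R 4.3.3; TMM factors, quasi-likelihood F test), and those with a Benjamini-Hochberg adjusted p under 0.05 were called. Per-mouse TE and IP ratios used DESeq2 1.42.0 size factors, and TE percentiles used genes whose RNA-Seq and footprint counts each summed to 75 or more over both mice. Likeness used a pseudocount of 1. Exon counts were below CDS counts in 1.802% of 164032 values, and the difference was then set to 0. Procedures were tested on simulated data. Members, lists and rules were chosen with earlier results of these data known: all members, 21 related and 10 other receptor genes by list, the 3 most alike genes, and related genes with large changes. Some genes of these lists are counted but not reported by name here. Libraries with one letter come from one mouse, and differences between mice were correlated across genes between both libraries of a mouse (A and B 0.257, C and D 0.241, E and F 0.563). Nothing else separates replicates. The spread behind a p-value was estimated over all libraries of the fit, with 2 mice per group, and edgeR also draws on other genes for it. The main fits of IP and TE treated both libraries of a mouse as separate samples. Alternatives were DESeq2, other scalings, no filter, a fold limit of 2, the other count table, the mouse as a block and leaving out each mouse. A planned level per coding length was not run for lack of coding lengths.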

Additional observations from a re-analysis of the deposited data

How the results depend on the processing

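The members' calls depended on the fold limit, on scaling and on the counted region, and the counts of each region were scaled on their own. In IP against input, 1 member was higher and 2 lower, which became 0 and 4 with library totals and 0 and 1 with a fold limit of 2. Higher members were 2 on CDS counts, 2 on CDS counts with the mouse as a block, and 0 outside the CDS. With the block on exon counts Grik3 was called too, and no other call of a member changed with it. Library totals moved the median of all genes by −0.28 in IP and −0.14 in baseline TE, and the share of IP calls that were higher from 48.5% to 33.6%. Grik3 (−0.57) and Grik5 (−0.39, adjusted p = 0.0422) were then called lower. Grik5 had the opposite sign on CDS counts (0.12), with the block too (0.13), and outside the CDS (0.22), and so had Grid1 with library totals (−0.20) and without mouse E (range on leaving out a mouse −0.025 to 0.18). Genes called in IP numbered 9194, 4433 with the fold limit and 5927 outside the CDS. For CDS against outside, library totals turned Grik4 to −0.056 and Grid1 to −0.21 and called Grik5 lower (−0.35), and median-ratio factors turned Grik5 to 0.029. Single mice gave −0.18 to 0.65 for Grik4, −0.20 to 0.039 for Grik5 and −0.085 to 0.23 for Grid1.

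In baseline TE, 2 members were higher, 1 with library totals or with no filter, 0 with the fold limit, and 1 to 2 when a mouse was left out. Grik2 was the one lost (0.13 with library totals, 0.19 with no filter, 0.20 without mouse B). Lower members were 4, and 2 with the fold limit, which left 3638 of 8703 genes called.

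With AZD-8055, genes called in TE were 102, 36 with the fold limit and 56 (without mouse A) to 77 when a mouse was left out. In RNA they were 18, with DESeq2 28, library totals 29, no filter 78 and the fold limit 4, and from 13 to 36 (without mouse D, and 33 without mouse A). In footprints they were 110, with no filter 264, the fold limit 36, and from 64 without mouse B to 837 without mouse C (265 without mouse D). No member was called under any of these. Leaving out a mouse turned the sign in TE for Grik3 (−0.053 to 0.077, and −0.042 with no filter) and Grid1 (−0.13 to 0.020), in RNA for Grik1 (−0.36 to 0.026), Grik2 (−0.041 to 0.087) and Grik4 (−0.10 to 0.064, and 0.0097 on exon counts), and in footprints for Grik1 (−0.17 to 0.22). The cause was not tested for any of these. With size factors over 12 libraries, the summed level of the members was 597 in input, 671 in IP, 578 and 627 in untreated and AZD-8055 RNA-Seq, and 246 and 269.8 in footprints.

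A sample left alone in its group was assumed to vary like the others, which for IP and input were the RNA-Seq libraries of mice A to D. Of 319 alternative values of single members, 273 kept direction and side of the threshold.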
